A study of Mus musculus with 8 samples.

Results

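The NF-kB system of the mouse intestinal epithelium was followed through 10 genes, chosen by name from a table of 25239 genes: the subunit genes Nfkb1, Nfkb2, Rela and Relb, the IkB-type genes Nfkbia, Bcl3 and Nfkbiz, the brakes Tnfaip3 and Zc3h12a, and the adaptor gene Tifa. All 10 had enough counts to be tested. NF-kB is a family of dimeric transcription factors that IkB proteins hold back in resting cells. A signal from a cytokine receptor or a microbial sensor leads to the destruction of IkB, the dimers then act on inflammatory genes, and several of the genes they switch on encode the proteins that end the signal. In the intestine this loop sets how strongly the epithelium answers the bacteria and immune cells next to it.

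Bulk RNA-seq was performed on epithelial cells (IECs) from the proximal small intestine of untreated mice. The 4 CD1d-KO samples carry the genotype label CD1d1/2 KO, a deletion of Cd1d1 and Cd1d2, whose products show lipid antigens to natural killer T (NKT) cells. These mice lack NKT cells. The 4 wild-type (WT) samples are labelled C57BL/6Jax. By the study's methods, mice of 7 to 10 weeks were used, crypts came from the duodenum, and IECs were sorted as EpCAM+ CD45- CD31- Ter119- cells. The series description gives 150000 cells per sample and 2 experiments, and the labels do not say which sample belongs to which. The comparison asks how the IEC transcriptome differs between these genotypes. The paper states that its mice were not littermates and that their microbiota may have contributed to the epithelial phenotype. It also reports shifts in NK cells and TCR-beta+ intraepithelial lymphocytes in CD1d-KO. Here these cannot be told apart from the lack of CD1d and NKT cells. In these bulk samples, fewer cells of a type and less RNA per cell cannot be told apart.

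The total count was 29743061 to 31629435 per CD1d-KO sample and 23610266 to 29763051 per WT sample. Cd1d1 had 8, 3, 5 and 0 raw counts in CD1d-KO 1 to 4 and 81, 70, 94 and 50 in WT 1 to 4, and so followed the labels. CD1d-KO 1 and 2 had 1722 and 2053 normalised counts of the Y-linked gene Ddx3y, against at most 1.048 in the other 6 samples. Male mice were thus present among the CD1d-KO samples alone, although the study's methods state that sex was matched between genotypes. Results are also given without these 2 samples. Nnt, which carries a known deletion in the C57BL/6J substrain, had 4684 ± 291 normalised counts in CD1d-KO and 1828 ± 65.7 in WT (SD, n = 4 each; DESeq2 adjusted p = 4.12e-90), so CD1d genotype and substrain background cannot be told apart. The epithelial markers Epcam (56050 ± 2070 in CD1d-KO, 52840 ± 547 in WT) and Vil1 (41190 ± 4010 and 43720 ± 3700) were high in both genotypes, and none of the 12 epithelial markers tested differed by DESeq2. Pecam1 of endothelium had means of 18.3 and 17.3 normalised counts. Leukocyte and stomach markers did differ between the genotypes, and their values follow the member results.

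Of the 10 NF-kB genes, 6 were called lower in CD1d-KO IECs (Nfkb2, Nfkbia, Bcl3, Tnfaip3, Zc3h12a and Tifa) and 0 were called higher, where called means a DESeq2 adjusted p under 0.05. The falls ran from 21.1% for Nfkbia to 44.1% for Zc3h12a. Over all 15446 genes tested, 4.03% were called, 2.38% lower and 1.65% higher. In 5 of the 10 (Nfkb2, Bcl3, Tnfaip3, Zc3h12a and Tifa) every CD1d-KO sample lay below every WT sample, and 0 were separated the other way. Among all genes tested, 9.61% had genotypes that did not overlap, 5.52% with CD1d-KO lower and 4.09% with CD1d-KO higher. The median log2 fold change was -0.37 over the 10 genes and 0.001 over all genes tested. As the 10 genes were chosen with earlier results of these data known, their counts beside these shares are a description only. The canonical subunit genes Nfkb1 and Rela, and also Relb and Nfkbiz, were not called. DESeq2 adjusted p-values are over all genes tested, and by the study's methods the 8 samples came from 4 mice of each genotype.

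**Figure D1:**
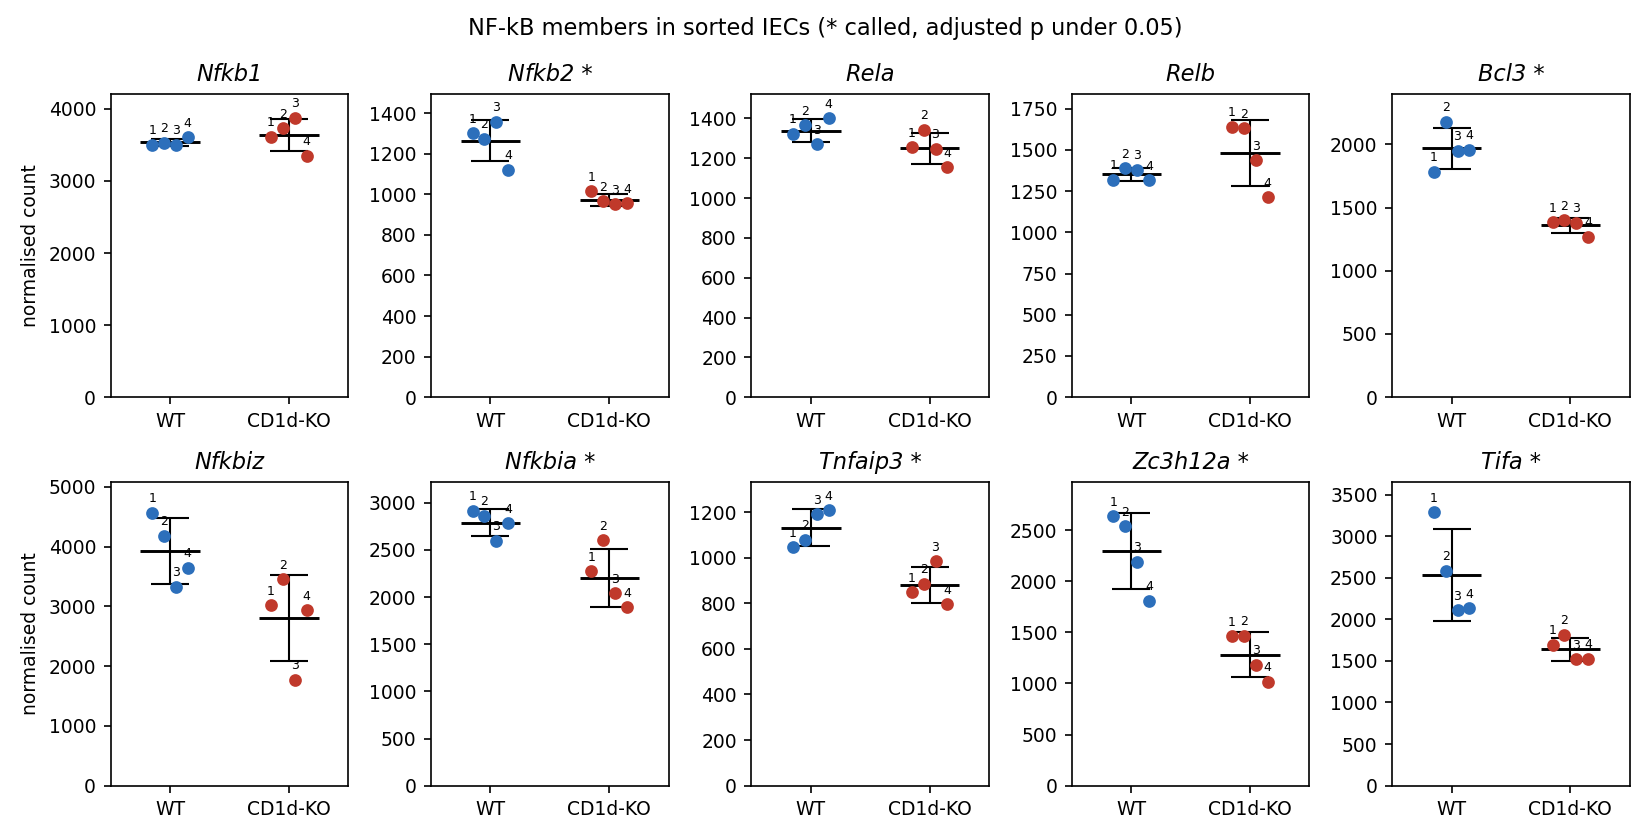
Normalised count (y axis, linear from 0) of each of the 10 genes in the 4 WT (blue) and 4 CD1d-KO (red) samples, with points numbered by replicate, horizontal bars at the mean, error bars of 1 SD and an asterisk for a DESeq2 adjusted p under 0.05. Nfkb1, Rela, Relb, Nfkbiz and Nfkbia overlap between genotypes, the last of them called. The CD1d-KO points of Nfkb2, Bcl3, Tnfaip3, Zc3h12a and Tifa all lie below the WT points.

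Several genes of the loop are themselves known NF-kB targets, so the promoter windows of the members are shown here, to let a reader see which carry the letters that NF-kB dimers are known to prefer. RefSeq windows from 250 bases before to 50 after each annotated start (GRCm38.p6, the same coordinates as mm10) were at hand for 7 of the 10 genes: Nfkb2, Rela, Nfkbia, Tnfaip3, Zc3h12a, Bcl3 and Tifa. The kappa-B consensus, a motif of 10 bases that begins with GGG and a purine and, after a pair of any bases, ends with a pair of pyrimidines and CC, was searched on both strands, and overlapping matches were kept. It was found for 5 of these 7 genes, against 9.55% of 27025 genes with a window and 12.19% of the tested genes with one. Among the genes with a window, 17.73% of those called lower (50 of 282) and 12.98% of those called higher (27 of 208) held a match. Of the pathway genes described below, Rel, Nfkbie and Nfkbid held a match and were not called, and Nfkbib, called lower, held none. A match was found for 11 of 24 target genes with a window. Ccl20 and Irf1 among these were called lower, and the rest were not called. Whether matches go with the falls was not tested. The windows of Rela and Zc3h12a held none. The matches are printed with their flanks, 5′ to 3′ on the strand of the gene, with the match in capitals:
Nfkb2 chr19:46304688-46304717 (+ strand): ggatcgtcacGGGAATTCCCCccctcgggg
Nfkb2 chr19:46304716-46304745 (+ strand): ggggccgaaaGGGGCTTTCCcggctggagc
Nfkb2 chr19:46305449-46305478 (+ strand): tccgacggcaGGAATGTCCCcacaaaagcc
Nfkb2 chr19:46305695-46305724 (+ strand): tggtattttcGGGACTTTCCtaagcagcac
Nfkbia chr12:55492657-55492686 (- strand): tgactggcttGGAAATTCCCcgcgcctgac
Tnfaip3 chr10:19015516-19015545 (- strand): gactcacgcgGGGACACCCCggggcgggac
Tnfaip3 chr10:19015403-19015432 (- strand): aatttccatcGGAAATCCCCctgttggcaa
Bcl3 chr7:19822734-19822763 (- strand): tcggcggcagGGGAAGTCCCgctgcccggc
Tifa chr3:127790680-127790706 (+ strand): gttgtgatccGGGATTTTCCaattttc

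The first Nfkb2 match holds 2 overlapping copies of the consensus in 11 bases and begins 39 bases before the upstream start of the gene, and the next begins 11 bases before it. The other pair belongs to downstream starts of Nfkb2. The Nfkbia match begins 29 bases before the start, and those of Tnfaip3 begin 125 and 12 bases before it. The Bcl3 match lies 2 bases after the start, and that of Tifa lies 33 bases after the downstream of its 2 starts. For a gene with a match close to the start, a gene with matches far from and close to it, and a called gene without any, the 250 bases before the start are given whole:
Nfkbia chr12:55492648-55492897 (- strand): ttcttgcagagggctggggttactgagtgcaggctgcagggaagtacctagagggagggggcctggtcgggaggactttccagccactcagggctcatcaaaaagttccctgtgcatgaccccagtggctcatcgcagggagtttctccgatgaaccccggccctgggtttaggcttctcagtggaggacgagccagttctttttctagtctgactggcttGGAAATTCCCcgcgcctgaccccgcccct
Tnfaip3 chr10:19015411-19015660 (- strand): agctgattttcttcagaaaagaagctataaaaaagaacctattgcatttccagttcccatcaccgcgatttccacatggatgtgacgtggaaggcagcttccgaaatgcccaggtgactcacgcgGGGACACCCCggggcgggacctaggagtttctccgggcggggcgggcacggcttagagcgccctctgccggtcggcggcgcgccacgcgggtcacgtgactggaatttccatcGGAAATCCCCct
Zc3h12a chr4:125127882-125128131 (- strand): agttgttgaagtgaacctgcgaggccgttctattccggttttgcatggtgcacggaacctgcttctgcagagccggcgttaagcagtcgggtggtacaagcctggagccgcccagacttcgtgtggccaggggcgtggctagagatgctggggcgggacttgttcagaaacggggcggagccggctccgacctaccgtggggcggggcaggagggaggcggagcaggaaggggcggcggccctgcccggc
Zc3h12a, without a match here, had the largest fall of the 10 genes. A match is a description of the letters only, and its absence says nothing about sequence outside the window.

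Among the members, levels were compared per length, as FPKM (fragments per kilobase of exon scaled to the total count of the sample). Nfkbia, which encodes IkB-alpha, the main cytoplasmic inhibitor, had the highest mean level, at 48.5 ± 7.22 FPKM in CD1d-KO and 61.6 ± 3.58 in WT (SD, n = 4). Tifa, Bcl3, Nfkb1 and Nfkbiz followed with means over all 8 samples of 31.9, 31.6, 30.3 and 30.2 FPKM, then Relb and Zc3h12a with 22.4 and 22.2. Rela had 16.9 FPKM, Nfkb2 11.8 and Tnfaip3 7.61. Neighbours in this order had overlapping sample ranges, except that every sample of Rela was above every sample of Nfkb2, and every sample of Nfkb2 above every sample of Tnfaip3. In WT the Tifa mean of 38.8 ± 8.99 FPKM and the Bcl3 mean of 37.4 ± 2.73 lay above the Nfkb1 mean of 29.9 ± 0.419. In CD1d-KO they were 25.1 ± 2.42 and 25.8 ± 1.35, below the 30.8 ± 1.93 of Nfkb1.

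Nfkb1 (mm10 chr3:135584655-135691547, - strand) encodes p105, the precursor of the p50 subunit. Nfkb1 had normalised counts of 3614, 3733, 3876 and 3349 in CD1d-KO 1 to 4 and of 3505, 3532, 3503 and 3605 in WT 1 to 4. The WT samples lay close together and inside the CD1d-KO range. The log2 fold change was 0.04 ± 0.06 (SE; 95% interval -0.08 to 0.16; DESeq2 adjusted p = 0.84). With a stomach marker score (the mean centred log2 level of a list of stomach genes in each sample) as a covariate it was -0.08.

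Rela (chr19:5637541-5648134, + strand) encodes p65, the subunit that carries the activation domain in the canonical dimer. Rela counts were 1255, 1344, 1248 and 1154 in CD1d-KO against 1322, 1364, 1269 and 1400 in WT. The ranges overlapped, and CD1d-KO 4 was the lowest of the 8 samples. The log2 fold change of Rela was -0.10 ± 0.07 (95% interval -0.24 to 0.04; DESeq2 adjusted p = 0.582).

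Relb (chr7:19606222-19629438, - strand) encodes the partner of p52 in the non-canonical dimer. Relb counts were 1640, 1633, 1438 and 1215 in CD1d-KO against 1319, 1389, 1381 and 1317 in WT. CD1d-KO 1 and 2, the samples with Y-linked counts, were the highest of the 8, and CD1d-KO 4 was the lowest. The log2 fold change was 0.13 ± 0.10 (95% interval -0.06 to 0.33; DESeq2 adjusted p = 0.588), and its sign turned without CD1d-KO 1 and 2 (-0.03) and with the stomach score (-0.15).

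Nfkb2 (chr19:46304737-46312090, + strand) encodes p100, which both restrains RelB and is cut to the p52 subunit. Nfkb2 counts were 1017, 968, 951 and 957 in CD1d-KO against 1301, 1275, 1359 and 1122 in WT. The highest CD1d-KO sample was below the lowest WT sample, and the CD1d-KO samples lay within a narrow range. The mean fell by 23.0%, with a log2 fold change of -0.38 ± 0.08 (DESeq2 adjusted p = 1.37e-04). Nfkb2 exons overlap those of 4833438C02Rik and Psd on the opposite strand over 90 of 3292 bases, and the counting did not use strand, so the count is uncertain there. Psd was also called lower (log2 fold change -0.36, adjusted p = 0.0341), and 4833438C02Rik was not (0.02, adjusted p = 0.978). The Nfkb2 call was lost with the stomach score (adjusted p = 0.362) or the leukocyte score (0.282) as a covariate in DESeq2, at log2 fold changes of -0.40 and -0.32.

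Bcl3 (chr7:19808462-19822755, - strand) encodes a nuclear IkB protein that binds p50 and p52 homodimers. Bcl3 counts were 1387, 1400, 1379 and 1270 in CD1d-KO against 1783, 2180, 1952 and 1959 in WT. The genotypes were wide apart: the highest CD1d-KO sample was 1400 and the lowest WT sample 1783. The mean fell by 30.9% from 1968 ± 163 to 1359 ± 59.9, with a log2 fold change of -0.53 ± 0.08 (95% interval -0.69 to -0.38) and a DESeq2 adjusted p of 3.1e-09, the smallest among the 10 genes. Bcl3 was called under all 16 alternative settings tried (another test, scaling, filter, sample set or covariate), with adjusted p-values of at most 0.0135.

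Nfkbiz (chr16:55811377-55838641, - strand) encodes IkB-zeta, an inducible nuclear IkB that switches on secondary response genes. Nfkbiz counts were 3024, 3455, 1772 and 2939 in CD1d-KO against 4564, 4178, 3328 and 3646 in WT. CD1d-KO 3 was far below the other samples, and CD1d-KO 2 lay above WT 3. With a mean of 2798 ± 720 against 3929 ± 550, Nfkbiz had the widest spread of the 10 genes within CD1d-KO. The log2 fold change of -0.49 ± 0.17 (95% interval -0.81 to -0.17) did not pass the threshold (DESeq2 adjusted p = 0.0649). Without CD1d-KO 2 it was called (-0.61, adjusted p = 0.0135), and without CD1d-KO 3 it was -0.32 (adjusted p = 0.0662).

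Nfkbia (chr12:55489409-55492647, - strand) is the inhibitor gene whose promoter letters are printed above. Nfkbia counts were 2273, 2601, 2041 and 1892 in CD1d-KO against 2916, 2862, 2597 and 2785 in WT. The overlap was slight, with CD1d-KO 2 just above WT 3. The mean fell by 21.1% from 2790 ± 139 to 2202 ± 309, with a log2 fold change of -0.34 ± 0.10 (95% interval -0.53 to -0.15; DESeq2 adjusted p = 0.019). This was the least firm of the 6 calls. The size of the fall changed little where the call was lost: -0.34 in edgeR (adjusted p = 0.0864), -0.35 with the leukocyte score (0.432), and -0.28 to -0.34 on omission of any of 5 samples, namely CD1d-KO 3 (0.0615), CD1d-KO 4 (0.0721), WT 1 (0.0815), WT 2 (0.104) or WT 4 (0.0544). Without the samples CD1d-KO 1 and 2 the log2 fold change was -0.50 (adjusted p = 6.6e-06).

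Tnfaip3 (chr10:19000910-19015410, - strand) encodes A20, an enzyme that edits ubiquitin chains and ends signalling upstream of the IkB kinase. Tnfaip3 counts were 849, 886, 984 and 797 in CD1d-KO against 1047, 1078, 1192 and 1209 in WT. All CD1d-KO samples were below all WT samples, by a gap smaller than the spread within each genotype. The mean fell by 22.3%, with a log2 fold change of -0.36 ± 0.09 (95% interval -0.54 to -0.19; DESeq2 adjusted p = 0.00323). The call was lost without CD1d-KO 1 and 2 (-0.34, adjusted p = 0.113) and with the stomach score (-0.36, adjusted p = 0.527).

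Zc3h12a (chr4:125118414-125127881, - strand) encodes Regnase-1, an RNase that destroys inflammatory mRNAs. Zc3h12a counts were 1462, 1469, 1182 and 1016 in CD1d-KO against 2636, 2540, 2190 and 1812 in WT. This was the largest difference among the 10 genes: the mean fell by 44.1% from 2295 ± 375 to 1282 ± 222, and the lowest WT sample was still above the highest CD1d-KO sample. The log2 fold change was -0.84 ± 0.14 (95% interval -1.11 to -0.57; DESeq2 adjusted p = 5.2e-07). Zc3h12a was called under all 16 alternative settings, with values from -0.64 with the leukocyte score (adjusted p = 0.0498) to -1.42 with the stomach score.

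Tifa (chr3:127789872-127798394, + strand) encodes an adaptor that joins the ALPK1 sensor of bacterial sugars to TRAF6. Tifa counts were 1693, 1814, 1519 and 1528 in CD1d-KO against 3291, 2586, 2113 and 2132 in WT. WT 1 was the highest sample, and the genotypes did not overlap. The mean fell by 35.2%, with a log2 fold change of -0.63 ± 0.13 (95% interval -0.89 to -0.37; DESeq2 adjusted p = 2.56e-04). Without WT 1 it was -0.48 and still called. With the leukocyte score it was -0.29 and no longer called (adjusted p = 0.652). Tifa lies 40.8 Mb and Nfkb1 48.6 Mb from Cd1d1 on chromosome 3.

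**Figure D2:**
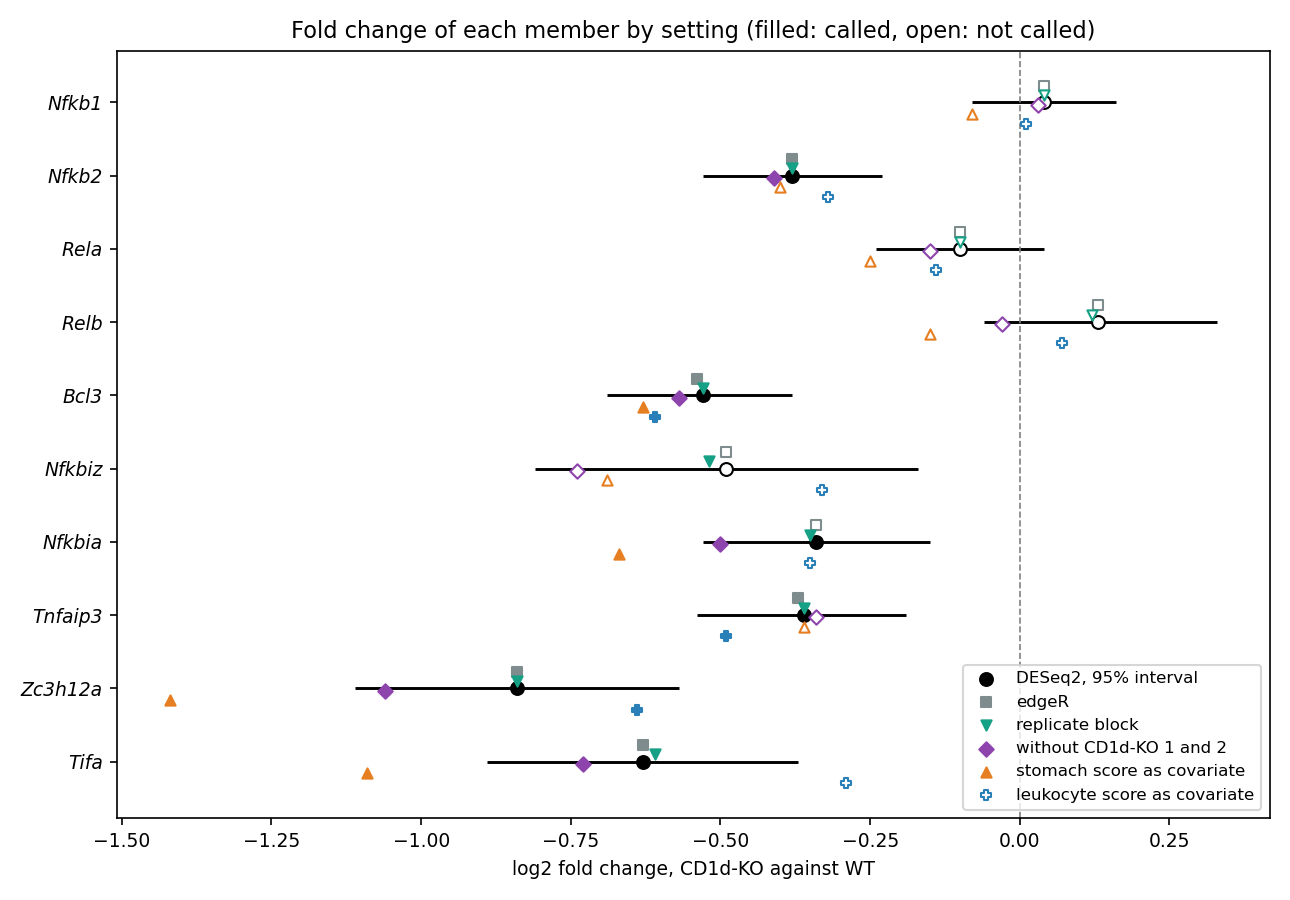
Log2 fold change of CD1d-KO against WT (x axis) for each gene (y axis) in DESeq2, with its 95% interval as a line, and under 5 alternative settings shown by symbol, filled where the adjusted p was under 0.05. Bcl3 and Zc3h12a are filled under each setting shown, while Nfkbia is open in edgeR and with the leukocyte score.

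Marker genes of cells outside the epithelial gate differed between genotypes, and which cells these counts came from was not tested. Of 32 leukocyte markers, 26 had enough counts to be tested and 25 were lower in CD1d-KO. Among those tested, 7 were called lower (Cd3g, Cd8a, Jchain, Cd14, Itgam and Coro1a among them), against 2.38% of all genes tested. The summed normalised count of the list was 1222 to 1405 in CD1d-KO and 1591 to 3389 in WT. Ptprc, the gene of CD45, which the sort excluded, had 35, 38, 59 and 86 normalised counts in CD1d-KO and 119, 101, 96 and 70 in WT (DESeq2 adjusted p = 0.0879). The leukocyte score (the mean centred log2 level of the list) was -0.568, -0.823, -0.475 and -0.279 in CD1d-KO against 1.683, 0.678, 0.112 and -0.328 in WT. WT 4 lay within the CD1d-KO range of this score, while the summed counts did not overlap between genotypes. Itgam was the largest part of these sums, with 678 to 848 normalised counts in CD1d-KO and 844 to 1169 in WT. The WT 4 counts were 1812 for Zc3h12a, 1959 for Bcl3, 2132 for Tifa, 1122 for Nfkb2 and 1209 for Tnfaip3, each above every CD1d-KO sample. WT 4 is a single sample, and a link between its leukocyte score and these counts was not tested. Among the WT samples, WT 4 had the lowest Zc3h12a and Nfkb2 counts. Zc3h12a fell from WT 1 to WT 4 (2636, 2540, 2190 and 1812) in the order of the leukocyte score, and Tifa was highest in WT 1. In contrast, Tnfaip3 was highest in WT 4 and Bcl3 lowest in WT 1.

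Of 13 stomach markers, all with lower means in CD1d-KO, 7 were called lower (2.38% of all genes tested were). They were led by Psca (0.480 ± 0.960 against 53.1 ± 51.6 normalised counts, DESeq2 adjusted p = 0.00157). Gkn3 of this list differed little (log2 fold change -0.08, DESeq2 adjusted p = 0.957). Which tissue or cells these counts came from was not tested. The sum of the stomach markers was 698.9 to 1521 in CD1d-KO and 2554 to 16620 in WT, and the stomach score did not overlap between genotypes. CD1d-KO 4 had the highest stomach score of the CD1d-KO samples (0.186, against -3.311 to -3.125 in the others). The same sample had the lowest counts of Bcl3, Zc3h12a, Nfkbia and Tnfaip3 among all 8 samples. In Nfkb2, Tifa and Nfkbiz, CD1d-KO 3 was the lowest (951, 1519 and 1772). CD1d-KO 4 was the lowest of the 8 samples in Nfkb1 (3349), Rela (1154) and Relb (1215) too, which were not called. CD1d-KO 4 is a single sample, and a link between its stomach score and these counts was not tested. Of 19 dissociation stress genes, such as Fos and Jun, 0 were called by DESeq2, with 14 lower and 5 higher, a median log2 fold change of -0.08 and sums of 68450 to 122600 in CD1d-KO and 68090 to 125300 in WT. CD1d-KO 3 had the lowest stress score (-0.619) and the lowest Nfkbiz count. No stromal or endothelial marker of the 4 tested was called (sums 305.3 to 404.7 and 290.6 to 329.1), nor was the single erythroid gene tested. The part of these differences in the member results was not tested beyond the covariate fits. With the leukocyte score in the DESeq2 fit, Zc3h12a, Bcl3 and Tnfaip3 were called among the 10 genes, and with the stomach score Zc3h12a, Bcl3, Tifa and Nfkbia were.

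**Figure D3:**
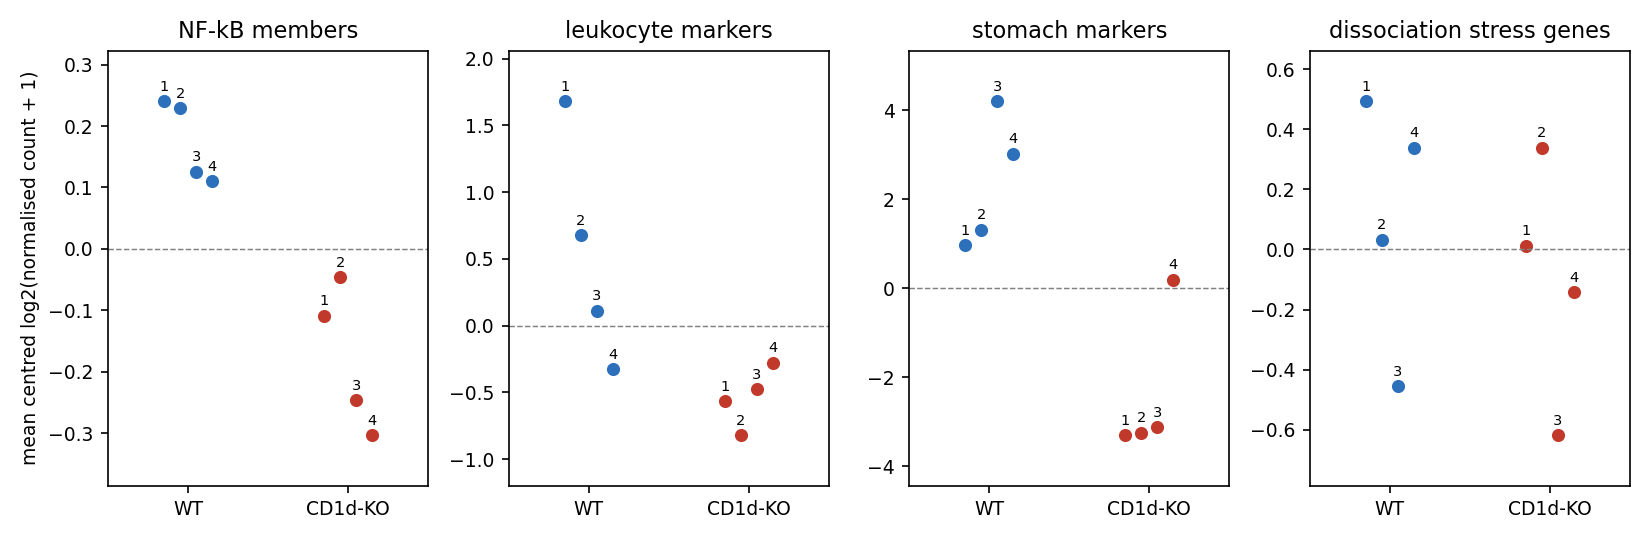
Mean centred log2(normalised count + 1) per sample (y axis, a different range in each panel) of the 10 NF-kB genes and of the leukocyte, stomach and dissociation stress lists in WT (blue) and CD1d-KO (red), with points numbered by replicate. The NF-kB score is 0.11 to 0.241 in WT and -0.304 to -0.046 in CD1d-KO, and the leukocyte score of WT 4 lies within the CD1d-KO range.

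Around the 10 members, 117 further pathway genes in 7 lists were read in the same fit. Of these, 106 were tested, 16 were called lower and 1 higher, and the median log2 fold change was -0.13. Over all genes tested, 4.03% were called, 2.38% lower and 1.65% higher. The calls were in the target genes (9 of 23 tested), the adaptors (5 of 27), the remaining subunit and IkB genes (1 of 4), the kinases (1 of 12) and the other brakes (1 of 21). A single call in a list this short cannot be told from the share over all genes.

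Among the 4 remaining subunit and IkB genes (Rel, Nfkbib, Nfkbie and Nfkbid), all had a negative log2 fold change with a median of -0.23, and Nfkbib, which encodes IkB-beta, was called. Nfkbib counts were 578, 564, 588 and 505 in CD1d-KO against 698, 735, 733 and 615 in WT (log2 fold change -0.32 ± 0.09, DESeq2 adjusted p = 0.0222). The genotypes did not overlap, but the Nfkbib call held in only 5 of 16 alternative settings. Of the 12 kinase genes, 6 had lower and 6 higher means, with a median log2 fold change of 0.01, and Ikbke was called. Ikbke, which encodes the non-canonical kinase IKK-epsilon, had 1871, 1939, 1782 and 2036 counts in CD1d-KO and 2564, 2432, 2366 and 2163 in WT (-0.32 ± 0.07, adjusted p = 0.00123), a separation without overlap that held in 13 of 16 settings.

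Of the 27 adaptor genes, 21 had lower and 6 higher means in CD1d-KO (median log2 fold change -0.14). Rnf31, which encodes HOIP, the catalytic subunit of the linear ubiquitin ligase LUBAC, had 1295, 1353, 1422 and 1369 counts in CD1d-KO and 1740, 1810, 1629 and 1697 in WT (-0.34 ± 0.06, DESeq2 adjusted p = 2.9e-05), and it was called in 14 of 16 settings. Sharpin, a LUBAC subunit, had 1232, 1216, 1237 and 1318 counts in CD1d-KO and 1559, 1476, 1429 and 1381 in WT (-0.23 ± 0.07, adjusted p = 0.0279). Rbck1, the remaining LUBAC subunit, named after its values were seen, had 2891, 2660, 2801 and 2853 in CD1d-KO against 3132, 3357, 3150 and 3065 in WT (-0.18 ± 0.06, adjusted p = 0.0455). In each of these LUBAC genes the genotypes did not overlap, as in 5.52% of all genes tested with CD1d-KO lower. However, Sharpin was called in only 5 and Rbck1 in only 2 of 16 settings. Tradd, the adaptor of the TNF receptor, had 866, 781, 930 and 829 counts in CD1d-KO and 953, 1027, 1060 and 1037 in WT (-0.26 ± 0.08, adjusted p = 0.0356), with 5 of 16 settings. Card9, an adaptor known from myeloid cells, was low, with 33, 33, 50 and 25 counts in CD1d-KO and 107, 64, 82 and 51 in WT (-1.12 ± 0.30, adjusted p = 0.00882), and it was called in 9 of 16 settings, but not in edgeR, without CD1d-KO 1 and 2, or with either score.

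The other brakes showed no common direction. Of 21 tested, 11 had lower and 10 higher means, with a median log2 fold change of 0.00. Zfp36l2, which encodes a protein that destabilises AU-rich mRNAs, was called higher, with 9656, 10916, 10132 and 10312 counts in CD1d-KO and 8927, 9063, 8357 and 9312 in WT (0.20 ± 0.06, DESeq2 adjusted p = 0.0278), in 7 of 16 settings. Of the 11 receptors tested 0 were called, and Ltbr, the lymphotoxin beta receptor and the most abundant (60.6 FPKM), had a log2 fold change of -0.12 (adjusted p = 0.409). Of the ligands, 8 of 12 were tested and 0 called, 4 were at 0 in all samples, and Il18, the most abundant (31.4 FPKM), had -0.01 (adjusted p = 0.996).

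Target genes had a median log2 fold change of -0.33 over 23 tested, with 17 lower and 6 higher. Nos2, which encodes the inducible nitric oxide synthase, had 620, 683, 831 and 426 counts in CD1d-KO and 2736, 2141, 2908 and 1707 in WT, a fall of 73.0% (-1.89 ± 0.25, DESeq2 adjusted p = 5.2e-11). Ccl20, the chemokine that draws CCR6+ cells, had 61, 52, 23 and 36 counts in CD1d-KO and 125, 132, 99 and 134 in WT (-1.50 ± 0.26, adjusted p = 2.53e-06). Nos2 and Ccl20 were called in all 16 settings. Pigr, which encodes the receptor that carries IgA to the lumen, was abundant at 202400 ± 5510 in CD1d-KO and 237800 ± 7700 in WT and fell by 14.9% (-0.23 ± 0.05, adjusted p = 1.05e-04). Saa1, an acute phase gene, was near the floor in CD1d-KO (4, 0, 4 and 4 counts) and had 75, 67, 157 and 10 in WT (-4.77 ± 0.98, adjusted p = 1.38e-04). The remaining calls, all lower and named after their values were seen, were Lcn2, Icam1, C3, Irf1 and Tap1. Lcn2 was called in only 3 of 16 settings and C3 in 12, against 13 for Saa1 and Irf1 and 14 for Pigr, Icam1 and Tap1. Except for Nos2 and Ccl20, no called target gene was called with the stomach score or with the leukocyte score as a covariate. Some genes of the target list, Irf1 and Tap1 among them, are also known interferon targets, and which signal lay behind these falls was not tested.

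**Figure D4:**
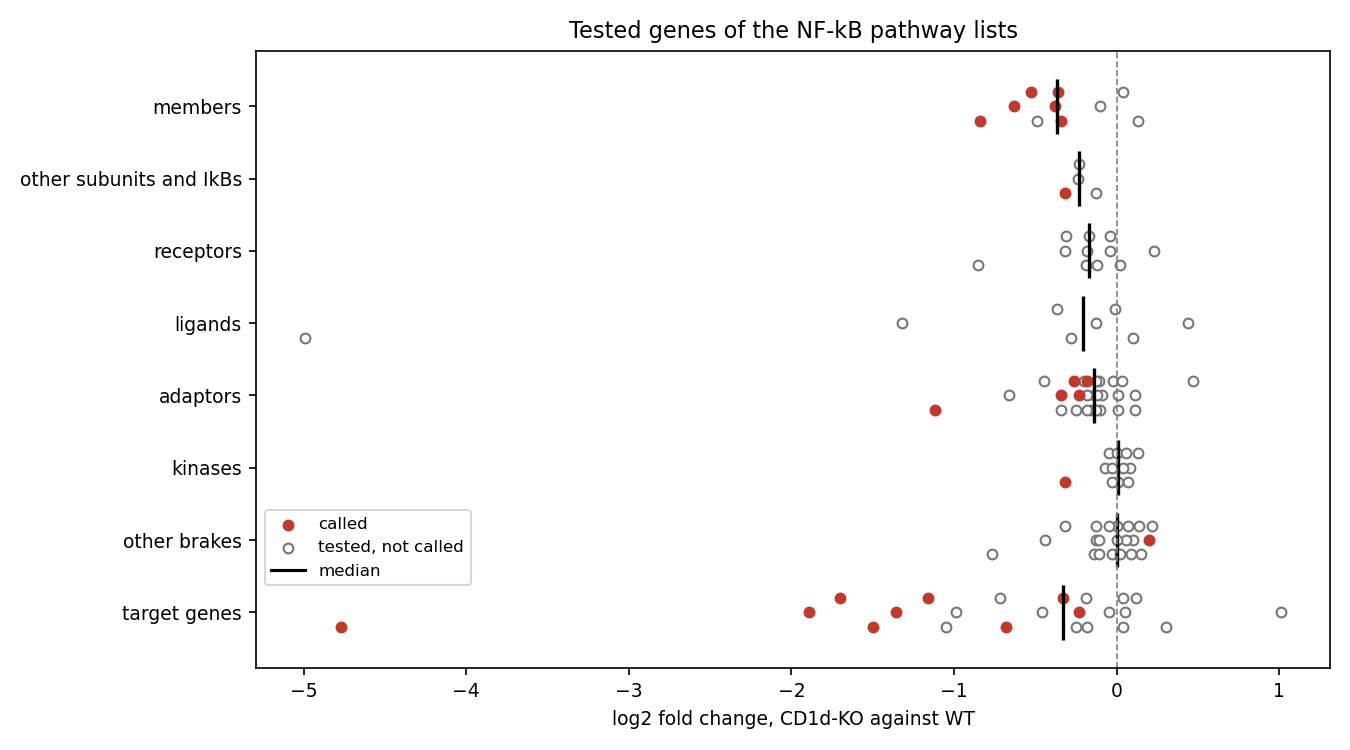
Log2 fold change of CD1d-KO against WT (x axis) of every tested gene in each list (y axis, points stacked for legibility), red where the DESeq2 adjusted p was under 0.05, with the median as a black line. Median values are -0.37 for the members, -0.33 for the target genes and 0.01 for the kinases.

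**Figure D5:**
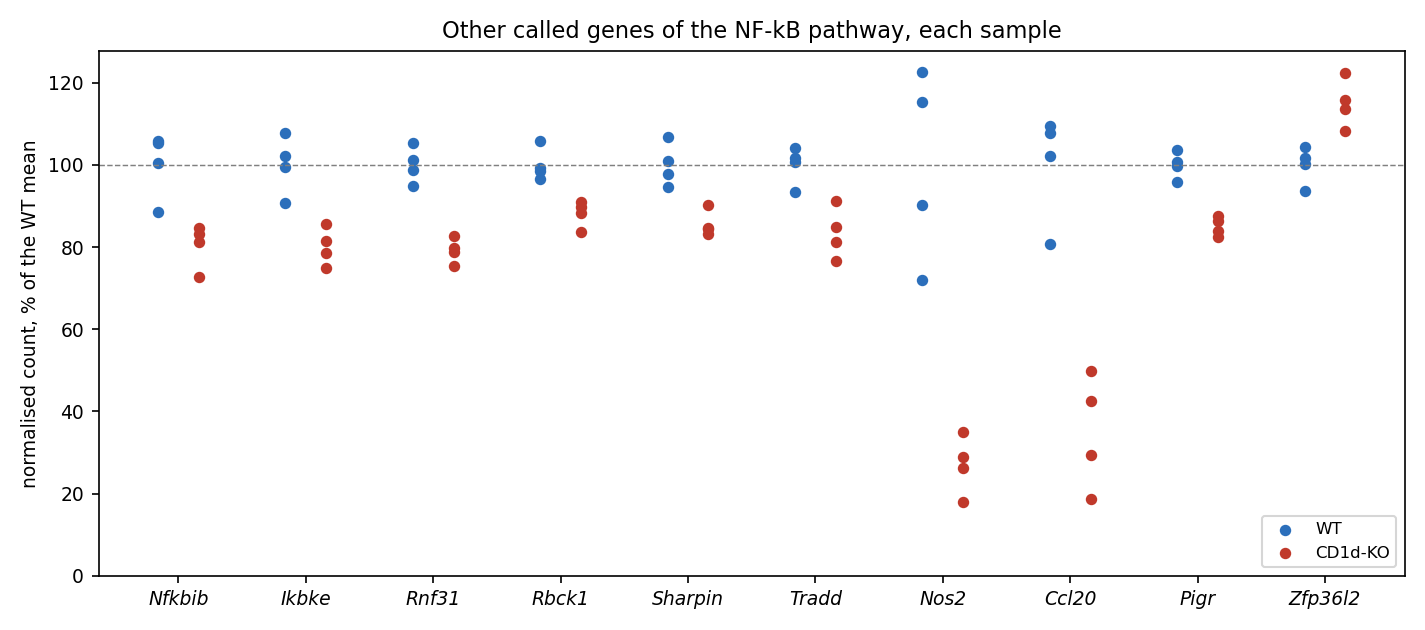
Normalised count of 10 called pathway genes outside the members in each WT (blue) and CD1d-KO (red) sample, as a percentage of the WT mean of that gene (y axis from 0). The genotypes do not overlap in any of the genes drawn, and Nos2 and Ccl20 show the deepest falls among the genes drawn, which leave out Saa1 and others.

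Among themselves the members followed different profiles over the 8 samples. The measure of likeness was the root mean square distance between z-scored profiles, where 0 is an identical shape. Zc3h12a was closest to Tifa (0.338), Nfkb2 (0.352) and Nfkbia (0.386), and Tnfaip3 was closest to Bcl3 (0.458). Nfkb1 and Relb were closest to each other (0.797) and far from the rest. Compared with the mean profile of the 6 called members, the most similar of 11711 other genes were Slc4a2 (distance 0.179), Nos2 (0.252), Rhbdf2 (0.261), Bcl9 (0.265) and Arhgap27 (0.265). Slc4a2, an anion exchanger, had 4348, 4275, 4319 and 4073 counts in CD1d-KO and 4924, 5049, 4966 and 4811 in WT (-0.22 ± 0.05, DESeq2 adjusted p = 9.3e-04). Arhgap27 was not called (adjusted p = 0.0614). As the profile sought has lower values in CD1d-KO, genes like it differ between genotypes by construction.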

How the data were processed

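RNA-seq libraries from sorted IECs of 4 CD1d-KO and 4 WT samples (groups from the sample labels) were analysed from the count table the authors deposited, which holds raw fragment counts per gene. Per the file headers, the authors counted exons with featureCounts 1.6.4 on the mm10 refGene annotation, with paired ends, primary alignments only and no strand setting. The submitters' processing notes name cutadapt, HISAT2 and GRCm39, a build other than that of the annotation, and coordinates here are those of the mm10 table. Reads of repeated stretches are counted once at their primary placement.

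Counts were normalised and tested with DESeq2 1.42.0 (R 4.3.3; Wald test, genotype as the term, Benjamini-Hochberg adjustment over 15446 genes left by independent filtering), as named in the study's methods. Genes with an adjusted p under 0.05 were called. Log2 fold changes are unshrunken and CD1d-KO against WT. FPKM was computed from the counts, the exon length in the table and the total count. The lowest raw count of each member gives a counting error of 1.84% to 3.47%, below the spread between replicates for most members. Raw counts of replicates differed beyond sampling noise (chi-square per degree of freedom 10.94 to 43.03), so no sample was merged. The steps were tested on simulated data.

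The members and gene lists were chosen with earlier results of these data known. Named genes were all members, at most 4 called genes per pathway list by smallest adjusted p, the most abundant gene of a list without a call, the 5 most alike genes with a mean count of at least 50, and defining markers. The 16 alternatives were edgeR 4.0.16 (quasi-likelihood), TMM factors, at least 10 counts in 4 samples, no filtering, a replicate block, omission of the samples with Y-linked counts, a stomach or leukocyte score as covariate, and omission of each sample. Transcript sequences of Relb, Zc3h12a, Bcl3 and Tnfaip3 share stretches of at least 100 bases at 90% identity or more with other counted genes, and those of Nfkb2 share up to 849 bases with its overlapping neighbours 4833438C02Rik and Psd in the newer transcript annotation, so a share of their counts is uncertain. Promoter windows for Nfkb1, Relb and Nfkbiz were not used here. Single values of some marker genes are not reported here.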

Additional observations from a re-analysis of the deposited data

Results flagged for a closer look

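Bcl3 in CD1d-KO 4 stood apart from the other samples of its genotype, at 1270 normalised counts against 1379 to 1400, a gap of 0.84 of the range of the group. Chance alone sets a sample apart in this way in about 1 in 20 groups, and 20 groups (10 genes in 2 genotypes) were examined. Bcl3 was called by DESeq2 without this sample too.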

How the results depend on the processing

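The count of members called (6) was 5 in edgeR, 7 with the replicate block, 5 without the samples with Y-linked counts, 4 with the stomach score and 3 with the leukocyte score, and 5 to 7 when a sample was left out. The count over all genes (622) was 228 in edgeR, 372 without the samples with Y-linked counts, 108 with the stomach score, 128 with the leukocyte score, and 323 to 646 when a sample was left out, with 323 without CD1d-KO 2, 406 without WT 1 and 385 without WT 2. The count of further pathway genes (17) was 9, 8, 2 and 2 in the same 4 settings, and 10 to 15 when a sample was left out, with 10 without CD1d-KO 2 and 11 without WT 2 or WT 3. The cause was not tested. Of the 160 refitted member fold changes, 3 changed sign (Nfkb1 to -0.08 and Relb to -0.15 with the stomach score, Relb to -0.03 on omission of the Y-linked samples), 12 lost their call and 2 gained one. Neither TMM factors nor the filters changed a member call. The labels do not say whether samples of the same replicate number belong together. The deviations of same-numbered samples correlated at 0.285, 0.025, 0.221 and 0.004. CD1d-KO 1 and 3 correlated best with their own number, CD1d-KO 2 with WT 1 (0.2) and CD1d-KO 4 with WT 3 (0.355). Whether these values follow the 2 experiments was not tested. The replicate block gave 569 calls over all genes and 13 further pathway genes, and it added Nfkbiz to the member calls (adjusted p = 9.66e-06). Both scores moved with genotype, so in those fits score and genotype were partly confounded. The order of member levels was the same per normalised count per kilobase.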

Other observations

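Ratios between members within a sample do not depend on the library size. They were chosen after the values were seen and are given without a test. Each sets a member called lower over a member not called, so lower ratios in CD1d-KO largely follow from the member results. Per exon length, Nfkb2 to Nfkb1, the precursors of p52 and p50, was 0.307 to 0.358 in CD1d-KO and 0.389 to 0.485 in WT. Nfkb2 to Relb, an inhibitor and its partner, was 0.396 to 0.527 in CD1d-KO and 0.57 to 0.659 in WT. Bcl3 to Nfkb1 was 0.799 to 0.861 in CD1d-KO and 1.14 to 1.39 in WT. Nfkbia to Rela was 2.76 to 3.26 in CD1d-KO and 3.35 to 3.72 in WT, so for this ratio the genotypes did not overlap, although the Nfkbia counts did.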
